A study of Mus musculus with 2 samples.

Results

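The genes described here are 38 members of homologous recombination and of the DNA damage checkpoint, from BRCA1 and its partners to the kinases that halt the cell cycle. They were taken from a list of gene symbols and not by any measured value, and all 38 were found in both deposited tables, out of 16555 genes that the tables share. Levels came from Drop-seq, in which each cell is lysed in its own droplet and the 3′ ends of its messenger RNAs are counted as UMIs (unique molecular identifiers). Medulloblastoma cells were taken at postnatal days 24 to 30 (P24-30) and at postnatal day 12 (P12) from hGFAPcre;Ptch c/c mice. In these animals Cre recombinase under a human GFAP promoter acts on conditional alleles of Ptch1, the receptor that holds back Sonic hedgehog signalling, and both libraries carry this genotype. No library without Cre or without the Ptch alleles was analysed. There was 1 library per age, and the sources used here do not give the number of animals behind each. The values therefore have no replicate check, no test was run, and every interval is a 95% interval that covers counting error only. Age cannot be told apart from how each library was prepared and counted.

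Homologous recombination repairs breaks across both strands of DNA by copying from the sister chromatid, so it works in S and G2 phase, when a sister is present. The break ends are trimmed, BRCA1, PALB2 and BRCA2 prepare the bared strand, and the strand then searches for its copy. The Fanconi anaemia proteins unhook strands that are crosslinked to each other. The kinases ATM and ATR sense damage and stalled replication and act through CHEK2, CHEK1 and WEE1 to hold the cell cycle. In the cerebellum, granule neuron progenitors divide rapidly after birth under Sonic hedgehog, and this medulloblastoma model arises from that lineage.

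After filtering, 4796 cells (median 2193.5 UMIs) remained at P24-30 and 5723 cells (median 1805 UMIs) at P12. The P24-30 cells carry 16 tags, G1 to G16, in their names, which no label explains, and they are used here as given. The P12 cells were clustered without the members, and the 13 clusters were named from marker lists. A G1/S licensing state (411 cells) was named from genes that load the replication helicase, a histone-high S phase state (1264 cells) from replication histones and a mitotic state (1282 cells) from genes of chromosome separation. A neuron-like state (556 cells) was led by Cntn2, Neurod1, Stmn2 and Tubb3, a microglia-like one had 86 cells, and 1982 cells stayed unnamed. By the same marker rule tag G2 had a histone-high S phase profile, G3 a G1/S one and G1 and G16 a mitotic one. Tag G8 was microglia-like, with 35 cells. Tag G13 had 11404 CPM (UMIs per 1000000 UMIs of the group) of neuron-like markers and Stmn2 in 79.4% of its 505 cells, but also 17562 CPM of choroid plexus markers, of which Ttr gave 14580 CPM. Of its 14503 Ttr UMIs, 14449 lay in the 50 cells with the most, so it is called by its tag. By the marker rule G13 falls to choroid plexus, with 5 of 6 of those markers raised and 3 among its top 10 genes, against 9 of 19 neuron-like markers raised and 0 in the top 10. At P12 the histone-high S phase state also had 9243 CPM of mitotic markers. The G1/S licensing state had 2417 CPM of them and the mitotic state 20290 CPM. Of the 12 measured markers of its own list, 3 and 5 were raised in the 2 clusters of the histone-high S phase state. Its name therefore does not exclude cells past S phase. Doublets were not removed. The P24-30 cells are named without barcodes, so barcodes shared between the libraries could not be counted.

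The highest summed levels of the members were in groups with S phase or G1/S markers. At P24-30 their summed level was 3037 CPM (2972 to 3103) in tag G2, 2937 CPM (2843 to 3034) in G1 and 2126 CPM (2014 to 2242) in G3. It was 1745 CPM (1676 to 1816) in the mitotic tag G16 and 689 CPM (638 to 742) in G13. The tags without a named state lay between 760.8 CPM in G12 and 1700 CPM (1624 to 1778) in G6 among tags of at least 100 cells, so G6 was level with G16. At P12 the sum was 3622 CPM (3504 to 3743) in the G1/S licensing state, 3660 CPM (3591 to 3731) in the histone-high S phase state and 2766 CPM (2709 to 2823) in the mitotic state. It was 875 CPM (815 to 939) in neuron-like cells. Unnamed P12 cells had 1974 CPM (1926 to 2022) together, and 1 unnamed cluster of 111 cells had 3423 CPM (3090 to 3782). At P12 the sum was thus lower in mitotic than in G1/S and S phase cells. At P24-30 the tags with mitotic markers lay apart, G1 near G2 and G16 below G3. Among the groups drawn in the bar plot of summed levels, G13 and the neuron-like state were lowest in their libraries.

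**Figure D1:**
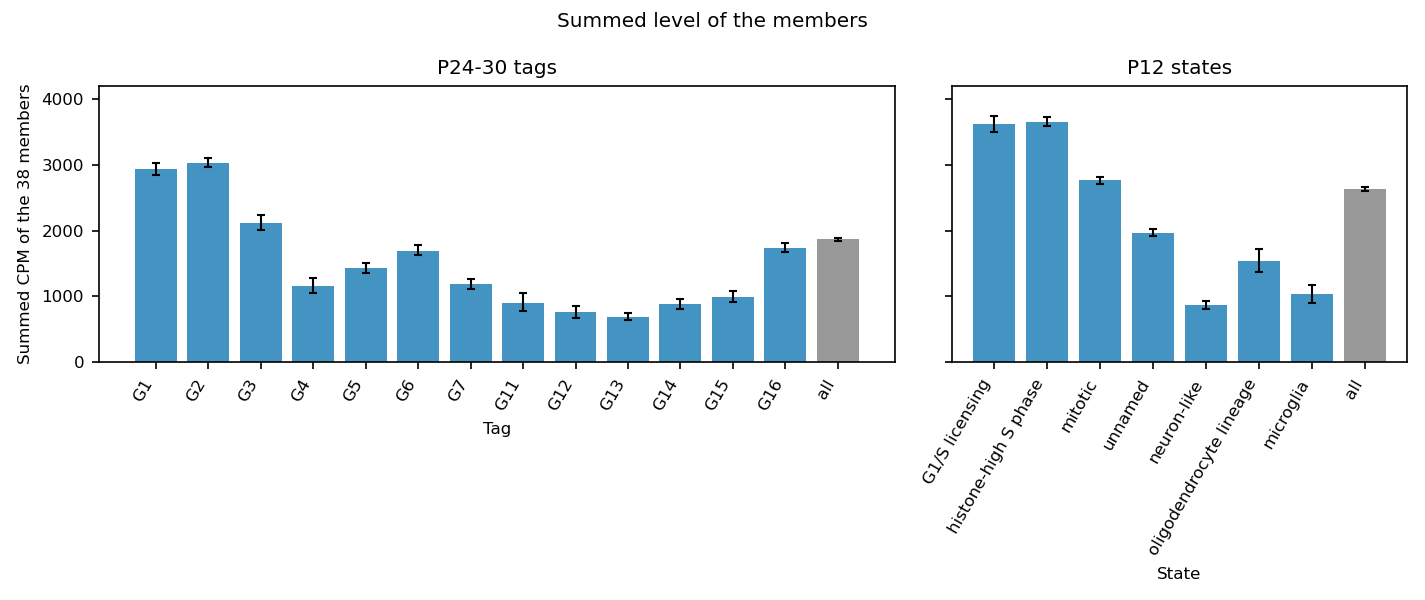
Summed level of the 38 members in CPM (y axis) by P24-30 tag (left, tags of at least 100 kept cells) and by P12 state (right), with all kept cells in grey. Bars are sums over the cells of a group and error bars are 95% Poisson intervals; the highest bars are tags G2 and G1 (3037 and 2937 CPM) and the G1/S licensing and histone-high S phase states (3622 and 3660 CPM).

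Microglia are a cell type outside the tumour lineage and were set beside the groups with the lowest sums. Microglia-like cells had 434 CPM (305 to 598) in tag G8 and 1032 CPM (900 to 1178) at P12. The sum of G13 was above that of G8, and the sum of neuron-like cells was not above that of the P12 microglia-like cells. With every cell thinned to 500 UMIs, 28.3% (24.4 to 32.5) of G13 cells had a member UMI, against 17.1% (6.56 to 33.6) of the microglia-like tag G8. At P12 the share was 37.4% (33.4 to 41.6) of neuron-like cells and 38.4% (28.1 to 49.5) of microglia-like cells. Without thinning these shares were 63.8%, 60%, 68.3% and 74.4%, at median depths of 1700, 2004, 1449 and 2079 UMIs. The neuron-like share was not above the microglia-like one, and the interval of G13 overlapped that of the 35 G8 cells, so no expression is read from these shares. Whether the member UMIs in these groups come from free RNA was not tested. In the groups with cell-cycle markers, thinned shares were above the intervals that these groups had in the same library. They were 75.1% (70.2 to 79.5) in G1, 74.8% (71.8 to 77.6) in G2, 64.3% (57.6 to 70.6) in G3 and 56.8% (51.9 to 61.6) in G16. At P12 they were 81.3% (77.2 to 84.9) in the G1/S licensing state, 82.8% (80.6 to 84.9) in the histone-high S phase state and 70.9% (68.3 to 73.4) in the mitotic state. Some groups without a cell-cycle name were also above those intervals of their own library. Their shares were 50.7% (46.0 to 55.3) in G6, 47.5% (42.3 to 52.7) in G5, 45.2% (39.8 to 50.7) in G7 and 57.5% (55.3 to 59.7) of the unnamed P12 cells. The intervals of G6 and G16 overlapped. A missing name does not mean that cycling cells are absent. G6 had 5 G1/S licensing markers among its top 10 genes, and an unnamed P12 cluster of 883 cells had 3, though the naming rule counted 0 as raised in each.

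Which members were higher in cells entering S phase than in neuron-like cells was asked within the P12 library. Of the 37 members with at least 50 UMIs, 35 were at least 1.5-fold higher in the G1/S licensing state, while 30.3% of all 11441 genes were. Trp53bp1 was the 1 member at least 1.5-fold lower, against 24.2% of all genes, and Fancc lay between. The median member was 4.89-fold higher (log2 2.29), and the median gene 1.06-fold. Intervals lay wholly above a ratio of 1 for 33 members, a count that depends on UMIs and was not made over all genes. Rad51b, with 10 UMIs in the whole library, could not be placed. The state was named from replication genes, so a cell-cycle difference between the states is built in, and only the members' own sizes are described.

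The highest ratios were those of the checkpoint kinases Wee1 and Chek1, of Rad54b, Rad54l and Rad51ap1 of strand exchange, and of Ung. Other checkpoint kinases had smaller ratios, with log2 values of 1.99 for Chek2, 1.69 for Atm and 1.11 for Atr. Wee1, the kinase that holds back mitotic CDK1, had 46 UMIs (46.7 CPM) in the G1/S licensing state and 1 UMI (1.13 CPM) in neuron-like cells, a ratio of 41.5 (7.08 to 1673). Rad54b, a motor protein of strand exchange, had 70 UMIs (71.1 CPM) and 2 UMIs (2.25 CPM), a ratio of 31.6 (8.41 to 266). Chek1, the kinase that ATR activates at stalled forks, had 113 UMIs (114.7 CPM) and 4 UMIs (4.51 CPM), a ratio of 25.5 (9.68 to 95.1). These wide intervals come with the few UMIs on the neuron-like side. Rad54l, a related motor protein, had 123 UMIs (124.9 CPM) and 5 UMIs (5.63 CPM), a ratio of 22.2 (9.25 to 69.5). Ung, which cuts uracil out of DNA, had 190 UMIs (192.9 CPM) and 9 UMIs (10.1 CPM), a ratio of 19.0 (9.82 to 42.3). Rad51ap1, a DNA-binding protein of strand exchange, had 242 UMIs (245.7 CPM) and 12 UMIs (13.5 CPM), a ratio of 18.2 (10.2 to 35.7).

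The 6 lowest ratios included both Ku genes of direct end joining, and Trp53bp1 was the 1 member on the neuron-like side. Trp53bp1, which shields break ends from trimming, had 64 UMIs (65.0 CPM) in the G1/S licensing state and 101 UMIs (113.8 CPM) in neuron-like cells, a ratio of 0.571 (0.411 to 0.789). It was the only measured member whose interval lay below 1. Its log2 ratio was -0.81, and it was -0.56 with a minimum of 1000 UMIs per cell and -0.43 with no mitochondrial filter, which are both under 1.5-fold. Fancc, of the Fanconi core complex, had 18 UMIs (18.3 CPM) and 14 UMIs (15.8 CPM), and its ratio of 1.16 (0.545 to 2.52) was not distinguishable from 1 at this depth. Xrcc5 and Xrcc6 encode the Ku proteins that bind break ends. Xrcc5 had 76 UMIs (77.2 CPM) and 38 UMIs (42.8 CPM), a ratio of 1.80 (1.21 to 2.74), and Xrcc6 had 47 UMIs (47.7 CPM) and 23 UMIs (25.9 CPM), a ratio of 1.84 (1.10 to 3.18). Parp1, a sensor of strand breaks, had 297 UMIs (301.6 CPM) and 125 UMIs (140.8 CPM), a ratio of 2.14 (1.73 to 2.66). Atr had 36 UMIs (36.6 CPM) and 15 UMIs (16.9 CPM), a ratio of 2.16 (1.16 to 4.25).

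By role, all 11 measured BRCA and strand exchange genes were at least 1.5-fold higher in the G1/S licensing state, with a median log2 ratio of 3.63. Brca1, which starts recombination on trimmed ends, had a ratio of 12.4 (5.78 to 31.6), its partner Bard1 one of 15.6 (5.06 to 78.2) and Palb2, which links BRCA1 to BRCA2, one of 11.3 (2.81 to 98.2). Brca2, which acts on the trimmed strand, had a ratio of 6.62 (4.38 to 10.4). All 5 genes of break ends were higher (median log2 2.10), with the nuclease Exo1 at 16.2 (6.07 to 61.2) and the end-binding partners Nbn at 4.27 (2.80 to 6.74), Rad50 at 3.43 (2.66 to 4.47) and Mre11a at 2.48 (1.37 to 4.71). Of the 8 Fanconi genes 7 were higher (median log2 2.01), and their deubiquitinase Usp1, the member with the most UMIs at P12, had 445 UMIs (451.8 CPM) in the G1/S licensing state and 82 UMIs (92.4 CPM) in neuron-like cells. Fanci had 11 UMIs and 0 UMIs, a ratio of 3.31 with 3 counts in place of 0, which does not cover counting error. Of the 8 checkpoint genes 7 were higher (median log2 1.84).

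**Figure D2:**
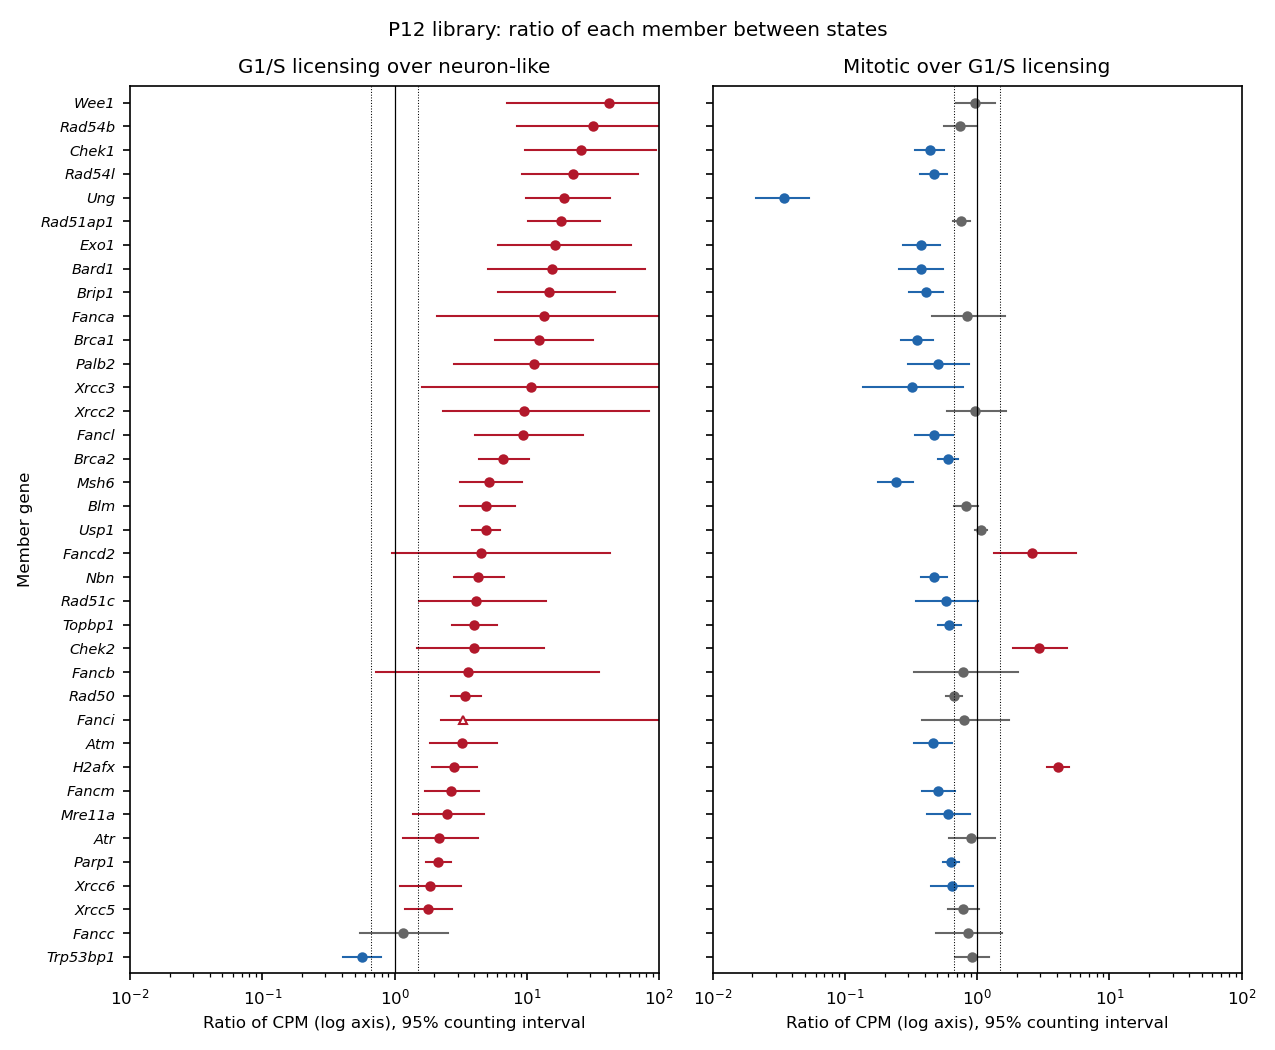
Ratio of CPM of each of 37 members on a log axis in the P12 library, for the G1/S licensing state over neuron-like cells (left) and the mitotic state over the G1/S licensing state (right). Points are ratios and bars 95% counting intervals cut at the axis. Red and blue mark ratios at least 1.5-fold higher and lower, grey those between and dotted lines the 1.5-fold limits. The open triangle (Fanci) is a ratio with 3 counts in place of 0 UMIs. On the left 35 members are red, and on the right 3 are red and 20 blue.

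Members differed in their level between mitotic cells and cells entering S phase. Of 37 members, 3 were at least 1.5-fold higher in the mitotic than in the G1/S licensing state of P12 (12.8% of all 11504 genes were) and 20 were at least 1.5-fold lower (19.3% of all genes). The median member had a log2 ratio of -0.66, and the median gene one of -0.10. Among the BRCA and strand exchange genes 8 of 11 were lower and 0 higher, among checkpoint genes 3 of 8 were lower and 2 higher.

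The 3 higher members were H2afx, Chek2 and Fancd2. H2afx, the histone variant that is phosphorylated around breaks, had 1569 UMIs (476.8 CPM) in the mitotic state and 115 UMIs (116.8 CPM) in the G1/S licensing state, a ratio of 4.08 (3.38 to 4.98). Chek2, the kinase that ATM activates, had 215 UMIs (65.3 CPM) and 22 UMIs (22.3 CPM), a ratio of 2.92 (1.88 to 4.77). Fancd2, the Fanconi protein that is ubiquitinated at crosslinks, had 87 UMIs (26.4 CPM) and 10 UMIs (10.2 CPM), a ratio of 2.60 (1.35 to 5.62). Usp1 followed at 1.08 (0.968 to 1.20), with 485.9 CPM in mitotic cells and 451.8 CPM in G1/S licensing cells. Xrcc2, which acts in recombination, was at 0.969 (0.587 to 1.66) with 68 and 21 UMIs, and Wee1 at 0.963 (0.687 to 1.37) with 148 and 46 UMIs. Set against the histone-high S phase state, 0 members were at least 1.5-fold higher, against 8.49% of all genes, with log2 ratios of 0.41 for H2afx, 0.50 for Chek2 and -0.26 for Fancd2. That state also held mitotic markers, at 9243 CPM. Wee1 RNA was at a like level in all cycling states of P12, with 46.7 CPM in the G1/S licensing, 45.9 CPM in the histone-high S phase and 45.0 CPM in the mitotic state.

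At the other end stood base and mismatch repair. Ung had 22 UMIs (6.69 CPM) in the mitotic state and 190 UMIs (192.9 CPM) in the G1/S licensing state, a ratio of 0.0347 (0.0212 to 0.0540), or 28.9-fold lower. Msh6, which recognises mismatches, had 84 UMIs (25.5 CPM) and 104 UMIs (105.6 CPM), a ratio of 0.242 (0.179 to 0.325). In the histone-high S phase state Ung had 32.8 CPM and Msh6 53.1 CPM, between both ends. The next lowest were recombination genes. Xrcc3, which works in recombination like Xrcc2, had 13 and 12 UMIs and a ratio of 0.324 (0.136 to 0.777). Brca1 had 112 UMIs (34.0 CPM) and 96 UMIs (97.5 CPM), a ratio of 0.349 (0.263 to 0.463), and Bard1 had 65 UMIs (19.8 CPM) and 52 UMIs (52.8 CPM), a ratio of 0.374 (0.256 to 0.550). Exo1 had 91 UMIs (27.7 CPM) and 72 UMIs (73.1 CPM), a ratio of 0.378 (0.275 to 0.523). Brca2 was less far down, at 0.599 (0.502 to 0.716), and so was Rad51ap1 at 0.759 (0.653 to 0.885).

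The kinases that act below ATR and ATM lay on opposite sides. Chek1 had 114.7 CPM in the G1/S licensing state, 87.3 CPM in the histone-high S phase state, 50.1 CPM in the mitotic state and 4.51 CPM in neuron-like cells. Chek2 had 22.3, 46.2, 65.3 and 5.63 CPM in the same order. By value Chek1 was thus highest in the G1/S licensing state and Chek2 in the mitotic state, and both were low in neuron-like cells. Over the 4 states, the G1/S licensing state held the highest level of 20 of the 37 members and the histone-high S phase state that of 14. The same count was not made over all genes, so these numbers are not shown to be particular to the members. Ranks were taken by value alone, and intervals of the G1/S licensing and histone-high S phase states can overlap. Exo1 had 73.1 CPM (57.2 to 92.1) in the first and 72.4 CPM (63.0 to 82.9) in the second. How many members had such an overlap was not counted. The mitotic state was highest for H2afx and Chek2, and neuron-like cells for Trp53bp1. The heat map of member levels sets these states beside the tags.

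**Figure D3:**
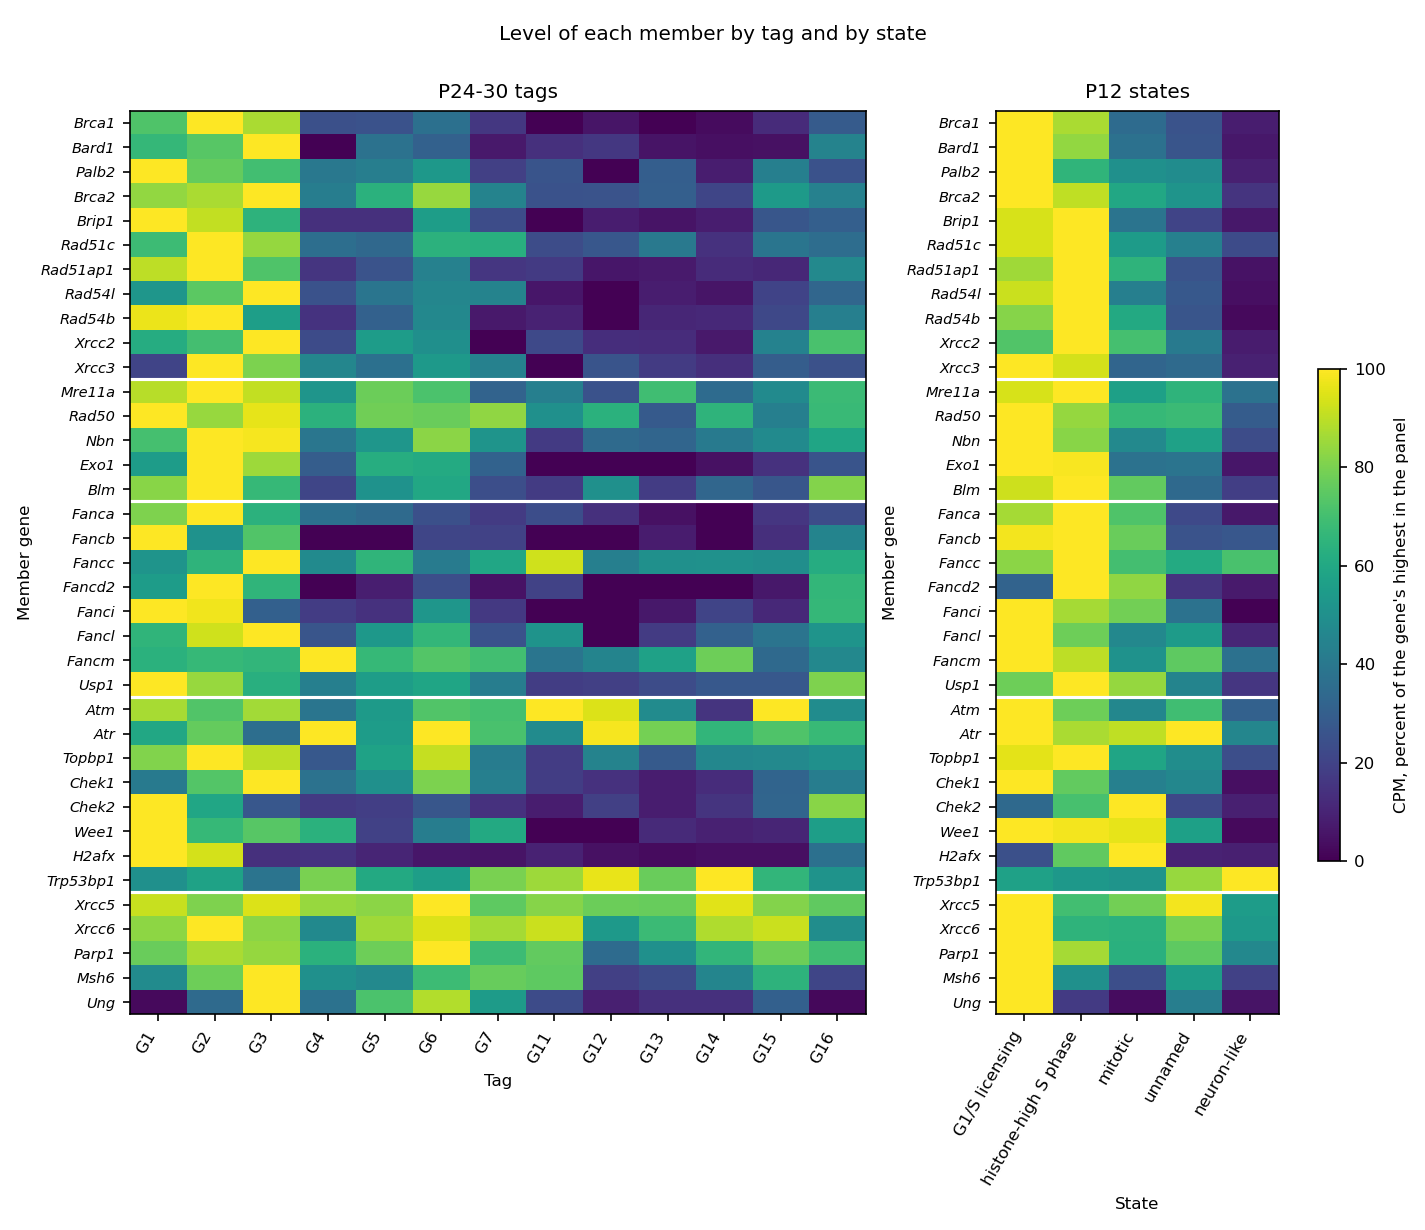
Level of each of 37 members (rows, grouped by white lines into BRCA and strand exchange genes, break ends, Fanconi anaemia, checkpoint and other repair genes) by P24-30 tag of at least 100 kept cells (left) and by P12 state (right). Colour is CPM as a percent of the gene's highest CPM in that panel. Most rows are brightest in tags G1 to G3 and in the G1/S licensing and histone-high S phase states; Trp53bp1 is brightest in tag G14 and in neuron-like cells.

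What the promoters of the members share was read from 300 bases around each start (250 before and 50 after) in RefSeq on GRCm38.p6, where 29 of the 38 members had an entry. E2F factors switch on genes of S phase entry, CHR elements (cell cycle genes homology regions) mark genes of G2 and mitosis, and CCAAT boxes bind NF-Y. An E2F motif (TTTCCCGC, TTTCGCGC, TTTGCCGC or TTTGGCGC, either strand, at any listed start) was in 7 of 29 member genes (24.1%) and in 2.60% of 27025 genes. A CHR motif (TTTGAA or TTCGAA) was in 3 of 29 (10.3%) and in 21.7% of all genes, and CCAAT was in 18 of 29 (62.1%) and in 41.1%. In the G1/S licensing state over neuron-like cells, the median log2 ratio was 2.05 for 7 measured members with the E2F motif and 2.30 for 21 without it. The promoters of the named members that lie at the ends of these comparisons are printed 5′ to 3′ on the gene's strand, with motif letters in capitals. Chek1 (chr9:36726609-36726908, minus strand), Rad54l (chr4:116123641-116123940, minus), Ung (chr5:114130185-114130484, plus) and Chek2 (chr5:110839733-110840032, plus) are shown because the first 3 are among the highest over neuron-like cells and Chek2 is among those highest in mitotic cells.
Chek1: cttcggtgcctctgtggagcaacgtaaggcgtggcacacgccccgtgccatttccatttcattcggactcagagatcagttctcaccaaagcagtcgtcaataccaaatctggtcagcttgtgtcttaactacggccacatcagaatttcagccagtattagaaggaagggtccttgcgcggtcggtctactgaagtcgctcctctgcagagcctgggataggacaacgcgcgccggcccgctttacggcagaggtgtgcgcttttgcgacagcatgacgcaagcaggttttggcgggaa
Rad54l: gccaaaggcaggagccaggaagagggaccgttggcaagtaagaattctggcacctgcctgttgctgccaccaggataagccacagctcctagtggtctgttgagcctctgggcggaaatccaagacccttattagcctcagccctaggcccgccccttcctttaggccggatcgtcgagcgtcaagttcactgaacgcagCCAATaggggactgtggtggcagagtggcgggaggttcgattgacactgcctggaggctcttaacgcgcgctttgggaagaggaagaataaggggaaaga
Ung: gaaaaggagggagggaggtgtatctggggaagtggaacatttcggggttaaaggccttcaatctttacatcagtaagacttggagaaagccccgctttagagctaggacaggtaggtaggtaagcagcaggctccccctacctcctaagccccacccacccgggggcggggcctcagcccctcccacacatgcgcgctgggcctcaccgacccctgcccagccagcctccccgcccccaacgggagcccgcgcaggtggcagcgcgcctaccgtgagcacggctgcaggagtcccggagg
Chek2: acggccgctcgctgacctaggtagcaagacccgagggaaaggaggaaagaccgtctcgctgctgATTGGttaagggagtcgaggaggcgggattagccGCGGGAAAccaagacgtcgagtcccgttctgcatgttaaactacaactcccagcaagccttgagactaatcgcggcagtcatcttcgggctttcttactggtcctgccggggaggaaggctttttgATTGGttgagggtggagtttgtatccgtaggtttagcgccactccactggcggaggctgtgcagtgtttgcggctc
Rad54l held 1 CCAAT box, 50 bases before the start. Chek2 held 2 CCAAT boxes on the other strand, at 186 and 26 bases before the start, and an E2F motif on the other strand at 152 bases. Of other members that the comparisons turn on, H2afx lies at chr9:44334694-44336077 (plus strand), Wee1 at chr7:110122046-110143286 (plus) and Trp53bp1 at chr2:121193281-121271407 (minus) in GENCODE vM21 on GRCm38. The windows of Chek1 and Ung held none of these letters. In GENCODE vM21 Chek1 lies at chr9:36708482-36727065 (minus strand), so its first base there lies before the printed window. Bases ahead of that start were not in this window. The Chek1 window ends in gcgggaa, so an E2F motif on the other strand (GCGGGAAA) that runs past its end could not be seen. A match describes the sequence and does not show that a factor binds there.

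At P24-30, tag G2, the largest tag with an S phase profile, was set over G13, the largest tag with high neuron-like markers. This is not the same contrast, since G2 is histone-high S phase and the marker rule names G13 from choroid plexus genes. Of 37 members 30 were at least 1.5-fold higher in G2, against 15.7% of 11063 genes, and 0 were at least 1.5-fold lower, against 33.1%. The median member was 5.35-fold higher, and the median gene had a ratio of 0.853. H2afx led, with 2562 UMIs (936.3 CPM) in G2 and 30 UMIs (30.2 CPM) in G13, a ratio of 31.0 (21.7 to 46.1). Fanca, of the Fanconi core complex, had 60 UMIs and 1 UMI, a ratio of 21.8 (3.77 to 876). Brca1 had 152 UMIs (55.5 CPM) in G2 and 0 in G13, a ratio of 18.4 with 3 UMIs in place of 0. These 3 genes mark breaks, repair crosslinks and start recombination.

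Brip1, the helicase that works with BRCA1, had 96 UMIs and 2 UMIs, a ratio of 17.4 (4.70 to 146). Fanci, the partner of FANCD2, had 41 UMIs and 1 UMI, a ratio of 14.9 (2.53 to 603), and Bard1 had 76 and 2 UMIs, a ratio of 13.8 (3.69 to 116). The 6 lowest were Trp53bp1 at 0.746 (0.563 to 0.997), Atr at 0.962 (0.540 to 1.79), Xrcc5 at 1.05 (0.726 to 1.56), Fancm at 1.17 (0.724 to 1.96), Fancc at 1.30 (0.707 to 2.54) and Mre11a at 1.44 (0.921 to 2.33). Trp53bp1 had 154 UMIs (56.3 CPM) in G2 and 75 UMIs (75.4 CPM) in G13, Atr 45 and 17, Xrcc5 113 and 39, Fancm 74 and 23, Fancc 50 and 14 and Mre11a 99 and 25 UMIs. The intervals of all but Trp53bp1 among these 6 hold 1. Of the choroid plexus genes that set part of G13 apart, Ttr had 81.1 CPM in G2 and 14580 CPM in G13, and the part of these cells in the ratios was not tested.

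All 30 members higher in G2 over G13 were also higher in the G1/S licensing state over neuron-like cells at P12, and 0 members were called in opposite directions. With 35 of 37 members higher at P12 and 0 lower in G2 over G13, little room was left for another outcome. The same overlap was not counted over all genes. Across these 37 genes, which are not independent replicates, the log2 ratios had a Pearson r of 0.63 and a Spearman rho of 0.63. The difference was large for H2afx, with log2 ratios of 4.96 in G2 over G13 and 1.49 in G1/S licensing over neuron-like cells, and for Ung, with 1.30 and 4.25. Markers of histone-high S phase summed to 24156 CPM in G2 and 1258 CPM in the G1/S licensing state, so these are not the same phases. In the histone-high S phase state of P12 H2afx had 359.8 CPM and Ung 32.8 CPM.

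**Figure D4:**
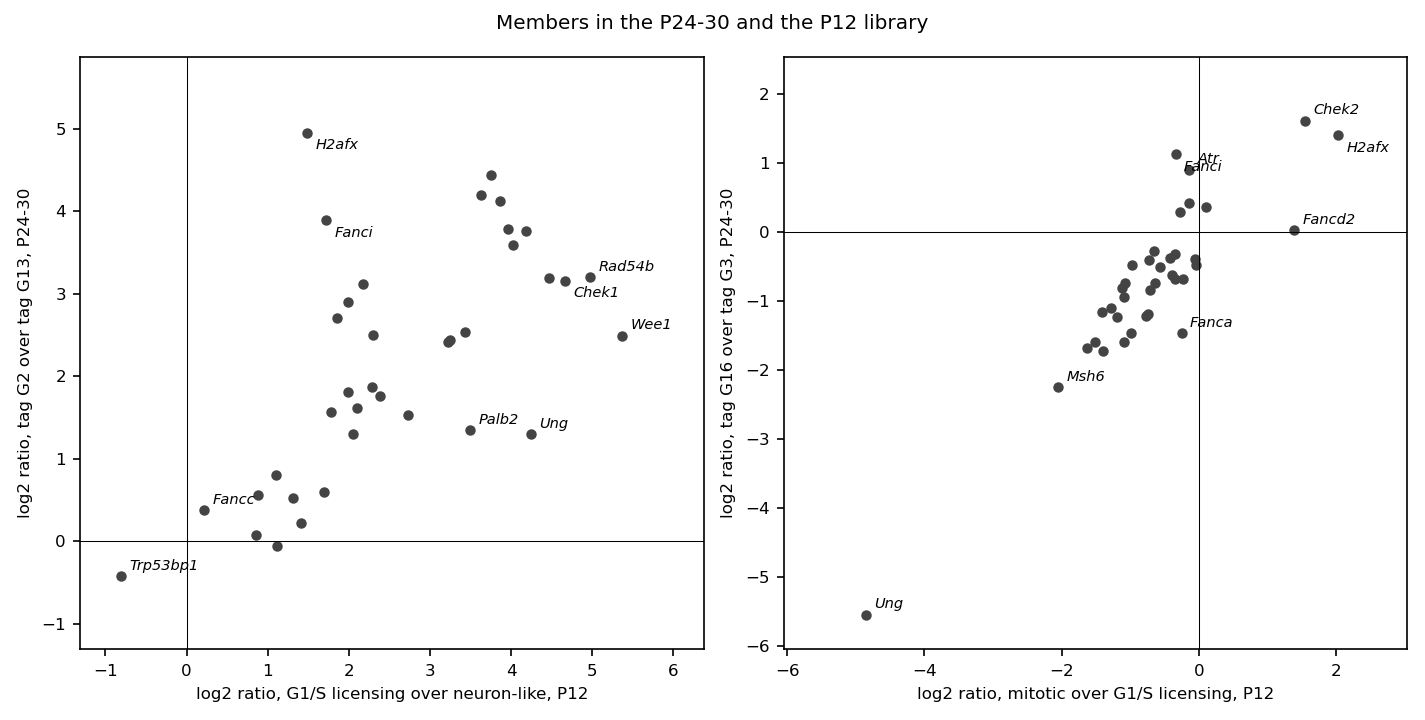
log2 ratio of each of 37 members at P24-30 (y axis) against P12 (x axis), for tag G2 over G13 against G1/S licensing over neuron-like cells (left) and tag G16 over G3 against mitotic over G1/S licensing (right). Each point is 1 gene; the right panel has an r of 0.89 with Ung far below all others, and H2afx lies high above the rest of the left panel.

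Tags G16 and G3, compared after their marker levels had been seen, gave a mitotic to G1/S pair at P24-30. Mitotic markers summed to 13466 CPM in G16 and 1560 CPM in G3, and G1/S licensing markers to 921 and 4256 CPM. Of 37 members 4 were at least 1.5-fold higher in G16, against 17.2% of 10899 genes, and 21 were at least 1.5-fold lower, against 21.4%. The higher members were Chek2 with 72 and 11 UMIs and a ratio of 3.05 (1.61 to 6.38), and H2afx with 509 and 90 UMIs and a ratio of 2.63 (2.10 to 3.33). Fanci at 2.17 (0.606 to 11.8) and Atr at 1.86 (0.678 to 6.35) were called on 14 and 3 and on 20 and 5 UMIs, so their intervals hold 1. The next were Trp53bp1 at 1.34 (0.831 to 2.23) and Usp1 at 1.28 (1.07 to 1.54).

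Ung was again the lowest, with 4 UMIs (2.91 CPM) in G16 and 87 UMIs (135.9 CPM) in G3, a ratio of 0.0214 (0.00571 to 0.0568). Msh6 had 14 and 31 UMIs, a ratio of 0.210 (0.103 to 0.407), Exo1 13 and 20 UMIs, a ratio of 0.303 (0.138 to 0.639), and Xrcc3 4 and 6 UMIs, a ratio of 0.310 (0.0644 to 1.31). Rad54l had 39 and 55 UMIs, a ratio of 0.330 (0.213 to 0.507), and Brca1 22 and 31 UMIs, a ratio of 0.330 (0.182 to 0.589). Of the members called, 2 were higher and 17 lower in both libraries, with 0 opposite, and this overlap was not counted over all genes either. The log2 ratios of the 37 genes at P24-30 and P12 had a Pearson r of 0.89 and a Spearman rho of 0.83, with Ung far from all other members.

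Tag G1 over G2 showed smaller differences. Both tags have high histone RNA, at 20086 CPM in G1 and 24156 CPM in G2, and mitotic markers summed to 9936 CPM in G1 and 4239 CPM in G2. Of 37 members 2 were at least 1.5-fold higher in G1, against 10.8% of 11022 genes, and 6 were at least 1.5-fold lower, against 13%. The higher ones were Fancb, of the Fanconi core complex, with 16 and 18 UMIs and a ratio of 1.96 (0.935 to 4.07), and Chek2 with 79 UMIs (63.7 CPM) and 103 UMIs (37.6 CPM) and a ratio of 1.69 (1.25 to 2.29). Wee1 at 1.49 (0.816 to 2.68), Palb2 at 1.31 (0.767 to 2.20), Atm, the kinase that breaks activate, at 1.20 (0.813 to 1.74) and Rad50 at 1.18 (1.00 to 1.4) followed. The lower ones were Ung with 4 and 129 UMIs and a ratio of 0.0684 (0.0184 to 0.179), Xrcc3 with 3 and 32 UMIs and 0.207 (0.0405 to 0.661), Exo1 at 0.551 (0.341 to 0.861), Fancd2 at 0.551 (0.309 to 0.934), Chek1 at 0.564 (0.396 to 0.790) and Msh6 at 0.621 (0.396 to 0.945). H2afx was at a like level in both, with 1000 CPM (945 to 1057) in G1 and 936.3 CPM (900 to 973) in G2.

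Across all tags of at least 100 cells, G2 held the highest level of 13 of the 37 members and G1 and G3 that of 9 each. No such count was made over all genes, and these ranks too were taken by value alone. Atr and Fancm, Xrcc5 and Parp1, Atm, and Trp53bp1 had their highest values in G4, G6, G11 and G14, but the interval of each of these 6 overlapped that of the next highest tag. Atm had 41.7 CPM (18 to 82.2) on 8 UMIs in G11 and 41.7 CPM (26.7 to 62.0) in G15, and Atr had 21.6 CPM (9.31 to 42.5) on 8 UMIs in G4 and 21.5 CPM (13.8 to 32.0) in G6. Ung was split sharply among tags, with 135.9 CPM (109 to 168) in G3, 120.1 CPM (101 to 142) in G6, 97.3 CPM (78.3 to 120) in G5 and 47.1 CPM (39.4 to 56.0) in G2. It had 19.1 CPM (11.5 to 29.8) in G13, 3.22 CPM (0.878 to 8.25) in G1 and 2.91 CPM (0.793 to 7.45) in G16. In thinned cells 5.43% (2.84 to 9.29) of G3 and 0.240% (0.00607 to 1.33) of G16 had an Ung UMI, or 29.0% and 0.719% unthinned. In the microglia-like G8 it was 0 of 35 cells (0 to 10), an interval that holds the thinned share of G3. Both mitotic tags thus had less Ung than G13.

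H2afx spread widely as well. After thinning, 39.9% (34.8 to 45.3) of G1 cells, 35.5% (32.4 to 38.8) of G2 cells, 16.3% (12.9 to 20.2) of G16 cells and 9.05% (5.62 to 13.6) of G3 cells had an H2afx UMI. In G13 the share was 1.58% (0.686 to 3.10) and in the microglia-like G8 2.86% (0.0723 to 14.9). At P12 it was 6.57% (4.37 to 9.41) in the G1/S licensing state, 16.6% (14.6 to 18.8) in histone-high S phase, 19.6% (17.4 to 21.9) in mitotic, 3.24% (1.93 to 5.07) in neuron-like and 4.65% (1.28 to 11.5) in microglia-like cells. Unthinned shares were 91.8%, 89.2%, 60.7%, 31.7%, 5.94% and 11.4% in these tags and 20.9%, 50.6%, 57.4%, 6.47% and 14% in these states. H2afx shares lay above the microglia-like interval in G1 and G2 and in the histone-high S phase and mitotic states. The interval of G16 overlapped it, and the shares in G13 and in neuron-like cells were not above it.

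Over all kept cells most members were lower in the P24-30 library than in the P12 library. Relative to the median gene, which itself had a log2 ratio of -0.27, 9 of 37 members were at least 1.5-fold lower at P24-30, against 11.2% of 12117 genes, and 1 was at least 1.5-fold higher, against 18.9%. The median member had a relative log2 ratio of -0.39, and intervals lay below 1 for 24 members and above it for 4. Whether an interval holds 1 depends on a gene's UMIs, which ran from 55 to 4783 among these members at P24-30. These intervals were not counted over all genes. Wee1 was lowest, with 102 UMIs (8.41 CPM) at P24-30 and 419 UMIs (35.3 CPM) at P12, a relative ratio of 0.286 (0.228 to 0.357). It was also lower within cycling groups, with 16.9 CPM (10.5 to 25.9) in G1 and 11.3 CPM (7.70 to 16.1) in G2, against 45.0 CPM (38 to 52.8) in mitotic and 45.9 CPM (38.4 to 54.4) in histone-high S phase cells at P12.

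Brca2 had 635 UMIs (52.4 CPM) at P24-30 and 1468 UMIs (123.6 CPM) at P12, a relative ratio of 0.509 (0.463 to 0.559). Brip1 followed at 0.517 (0.440 to 0.605), Exo1 at 0.549 (0.466 to 0.645), Fancm, a helicase of the Fanconi pathway, at 0.568 (0.495 to 0.652) and Atr at 0.584 (0.488 to 0.697). H2afx was the highest measured member, with 4783 UMIs (394.5 CPM) at P24-30 and 2963 UMIs (249.5 CPM) at P12, a relative ratio of 1.90 (1.81 to 1.99). Fanci was at 1.38 (1.02 to 1.87), Fancc at 1.23 (1.00 to 1.5), Ung at 1.17 (1.04 to 1.31), Fanca at 1.16 (0.897 to 1.5) and Xrcc3 at 1.08 (0.766 to 1.52). Rad51b had 31 UMIs at P24-30 and 10 UMIs at P12, under the minimum of 50 in each.

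Summed cell-cycle markers also differed between the ages. Summed mitotic markers were 3900 CPM at P24-30 and 8641 CPM at P12, G1/S licensing markers 2037 and 2309 CPM, and histone-high S phase markers 8420 and 1973 CPM, and the part of these in the members' ratios was not tested. The histone list had 14 measured genes at P24-30 and 12 at P12, and groups of the same name differed in it, with 24156 CPM in tag G2 and 4593 CPM in the histone-high S phase state, so these sums do not give the shares of cycling cells. Without the glial and immune cells 12 members were at least 1.5-fold lower, against 11.4% of all genes, and 1 was higher, against 19.5%. With tag G13 left out as well, 7 were lower, against 10.8% of all genes, and 1 higher, against 18.2%. With every cell given the same weight 14 were lower, against 11.8% of all genes, and without division by the median gene 20 were, against 24.2%. The sources used here do not give the gene annotation behind either table.

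**Figure D5:**
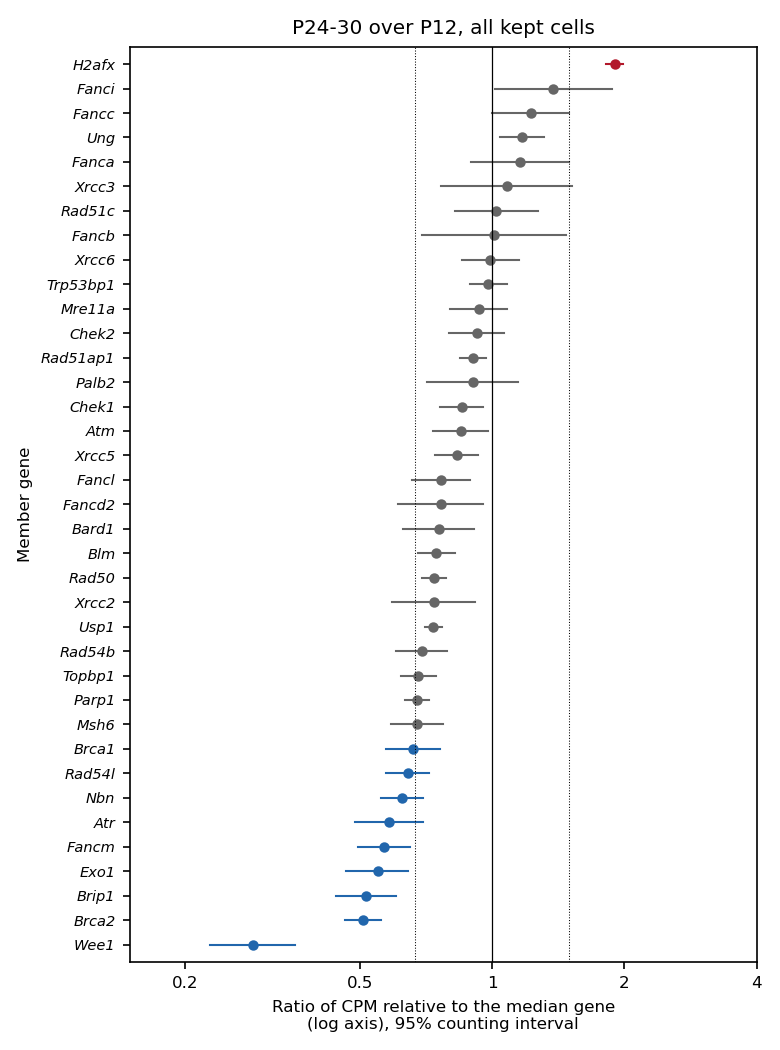
Ratio of CPM of each of 37 members in all kept cells, P24-30 over P12 and divided by the ratio of the median gene, on a log axis. Points are ratios, bars 95% counting intervals, red and blue ratios at least 1.5-fold higher and lower, grey those between and dotted lines the 1.5-fold limits; Wee1 is lowest at 0.286 and H2afx highest at 1.90.

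Other genes of the same pathways, a list of 69 genes beside the members, are given by counts and by their highest and lowest ratios. In the G1/S licensing state over neuron-like cells 47 of 68 measured genes were at least 1.5-fold higher and 5 lower, against 30.3% and 24.2% of all genes. The highest were Neil3, a DNA glycosylase, at 37.9, Rmi2, a partner of BLM, at 21.6 and Psmc3ip, which acts in strand exchange, at 18.7. The lowest were the nuclease gene Dclre1c at 0.347, the USP1 partner Wdr48 at 0.532 and the ligase Lig3 at 0.536. In the mitotic over the G1/S licensing state 8 of 68 were higher and 27 lower, against 12.8% and 19.3% of all genes. Cdc25c, the phosphatase that opens mitosis, was at 18.1 (9.10 to 42.1) with 483 and 8 UMIs, Cdc25b at 5.99 (3.51 to 11.1) and Dclre1c at 2.75 (1.10 to 8.88), and Rmi2 was at 0.162, the nuclease Dna2 at 0.173 and the ligase Lig1 at 0.194.

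At P24-30, 39 of the 69 genes were at least 1.5-fold higher and 5 lower in G2 over G13, against 15.7% and 33.1% of all genes. Neil3 at 23.8, the ATR mediator Clspn at 19.1 and the nuclease subunit Eme1 at 18.2 were highest. Nhej1 at 0.327, Dclre1c at 0.418 and Mus81 at 0.440 were lowest. In G16 over G3, 11 were higher and 21 lower, against 17.2% and 21.4% of all genes. Cdc25c was highest at 14.4, followed by Cdc25b at 13.5 (87 UMIs in G16 and 0 in G3, with 3 UMIs in place of 0) and Dclre1c at 5.43. Lig1 at 0.170, Dna2 at 0.175 and Prkdc at 0.215 were lowest. In G1 over G2, 6 were higher and 16 lower, with Cdc25c at 3.73, Cdc25b at 3.13 and Nhej1 at 1.96 highest and Rmi2 at 0.341, the ubiquitin ligase Rnf8 at 0.356 and Dna2 at 0.368 lowest. For P24-30 over P12, 2 were higher and 9 lower, against 18.9% and 11.2% of all genes. Atrip at 62.1 (422 and 8 UMIs), Ogg1 at 1.65 and Mnd1 at 1.44 were highest. Gen1 at 0.447, Smc5 at 0.454 and Rbbp8 at 0.516 were lowest. Atrip stood apart from all other genes of both lists in this comparison.

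Some members cannot be counted cleanly. In the last 800 bases of their transcripts, 7 members (Rad54b, Fanca, Fancd2, Fanci, Fancl, Parp1 and Usp1) share at least 200 bases at 90% identity or more with transcripts of another gene. In GENCODE vM21, 17 members overlap an exon on the other strand and 3 one on the same strand. The sources used here do not say whether the counting used strand, so reads of such pairs cannot be told apart. Without the 7 members the P24-30 over P12 count was 9 of 30 lower and 1 higher, against 11.2% and 18.9% of all genes.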

How the data were processed

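Drop-seq libraries of medulloblastoma cells from P24-30 and P12 mice were analysed, 1 per age. Per the submitters' processing notes, CASAVA and the mm10 build were used; the sources used here do not give the aligner, the annotation or any UMI collapse. The P12 table holds counts per gene and cell as deposited, for 24858 genes and 6000 barcodes (12265399 UMIs). The P24-30 table holds deposited natural log values, ln(1 + 10000 × share), for 19714 genes and 4991 cells. Each cell's whole counts were recovered from them, and 100% of 6195642 values were whole within 0.001 (12284458 UMIs). Listed genes covered 93.7% to 100% of a cell's total.

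Cells under 500 UMIs or above 20% mitochondrial UMIs were left out. That removed 146 and 49 cells at P24-30 and 9 and 268 at P12. Kept cells held 12124327 UMIs at P24-30 and 11873881 at P12. Doublets were not called. P12 cells were clustered without the members and the other pathway genes (scanpy 1.11.5, 2000 variable genes, 30 components, 15 neighbours, Leiden resolution 1, seed 1). A cluster was named when at least 3 of a list's markers were raised (log2 of at least 1) and at least 1 was among its top 10 genes, thresholds set after the clusters were seen. Counts were summed per group and given as CPM. A ratio of at least 1.5-fold was called for genes with at least 50 UMIs. Ratios carry exact 95% binomial intervals, levels exact Poisson intervals and shares of cells Clopper-Pearson intervals, all for counting error only, and 3 counts stood in for 0. The ratio between ages was divided by that of the median gene. Since 3′ ends were counted, levels of different genes were not compared. The named genes are those with the 6 highest and 6 lowest ratios of each comparison, plus members by role. With 1 library per age no test was run. The scripts were tested on simulated data. Promoters came from RefSeq (GRCm38.p6), positions from GENCODE vM21 and shared sequence from blastn 2.17.0. The members and lists were chosen with earlier results of these data known.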

Additional observations from a re-analysis of the deposited data

Results flagged for a closer look

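Fancd2, which acts in crosslink repair, went opposite ways in the mitotic groups of the libraries. Its log2 ratio was -0.86 in tag G1 over tag G2 at P24-30 (18 and 72 UMIs) and 1.38 in the mitotic over the G1/S licensing state at P12 (87 and 10 UMIs). The difference was not tested. The second groups are not alike, since G2 has a histone-high S phase profile, and over the histone-high S phase state of P12 the log2 ratio was -0.26. In tag G16 over tag G3 it was 0.02 (24 and 11 UMIs). Fancd2 is among the members that share sequence with another gene.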

How the results depend on the processing

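Counts are of members at least 1.5-fold higher or lower unless another fold is named, and the cause of each shift was not tested. G2 over G13 had 0 lower members; it had 1 with the mean of the cells' shares (32.8% of all genes), 1 with thinned cells (35.6%), 1 with tags G11 and G12 as the second group (35.5%) and 2 with G3 as the first (31.4%). Its median log2 ratio was 1.62 with thinned cells. G1 over G2 had 2 higher and 6 lower; it had 6 and 10 with thinned cells (25.1% and 19.7% of all genes), 7 and 10 over G3 (17% and 20.9%), 0 and 2 at 2-fold (3.87% and 5.46%), and 1 higher with at least 100 UMIs per gene (8.75%). G16 over G3 had 21 lower, and 13 at 2-fold (11.3%). For G1/S licensing over neuron-like cells the lower count of 1 was 0 with at least 1000 UMIs per cell (23.7%), 0 with no mitochondrial filter (23.9%), 0 at 2-fold (14.1%) and 2 with thinned cells (25.5%). Mitotic over G1/S licensing had 20 lower, and 12 at 2-fold (8.11%); its higher count of 3 was 0 over the histone-high S phase state (8.49%). P24-30 over P12 had 9 lower; it had 14 with the mean of the cells' shares (11.8%), 14 with no minimum of UMIs per gene (15.1%), 20 when not divided by the median gene (24.2%) and 1 at 2-fold (3.57%). Its higher count of 1 was 3 with thinned cells (21.9%), 2 with at least 20 UMIs per gene (22.5%), 2 with no minimum (28.3%) and 0 at 2-fold (12.1%). Called members that changed sign were, with thinned cells, Xrcc3 (-0.084) and Wee1 (-0.084) in G2 over G13, Xrcc3 (0.60) in G1 over G2, and Brca1 (0.89), Xrcc6 (0.084) and Nbn (0.25) in G16 over G3; Atm (-0.41) with G11 and G12 as the second group; and Fancd2 (-0.26) over the histone-high S phase state. Of the other values of single members 2361 stayed within the limits set for them and 148 moved, and 66 medians stayed. Resolution 0.6 gave no G1/S licensing state, so it gave no value. The P12 states also changed in size with the settings. The G1/S licensing state of 411 cells had 1232 with at least 1000 UMIs per cell and 821 with no mitochondrial filter. It had 686 with the members kept in the clustering and 589 at resolution 1.5. The histone-high S phase state of 1264 cells had 291, 1264, 1341 and 941 in the same order. Groups other than those in the design were chosen after seeing the data. No paired analysis was possible because each age has 1 library. Depth limits members with few UMIs: thinning leaves a few UMIs of Xrcc3 or Wee1.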
